A study of Mus musculus with 58 samples.

Results

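The RNA of 34 genes of glycolysis and the pentose phosphate pathway was measured in mouse CD4+ T cells in which the microRNA cluster miR-17~92 was deleted, added or left as in the wild type. The genes were taken by name and found through the Entrez identifiers of the count table, in which all 34 had a row among 24028. All 34 were also among the 13709 genes that passed the filter on low counts. They fall into 4 transporters of glucose and lactate, 12 genes of upper glycolysis, 6 of lower glycolysis, 6 that set the fate of pyruvate, 2 of the oxidative branch of the pentose phosphate pathway and 4 of its non-oxidative branch.

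Glycolysis turns glucose into pyruvate, which is reduced to lactate and exported or passed to the mitochondria through pyruvate dehydrogenase. The pentose phosphate pathway branches off at glucose 6-phosphate and yields NADPH in its oxidative branch and ribose 5-phosphate for nucleotides. Naive T cells are known for a low glucose use that rises when the antigen receptor and CD28 are engaged, and much of that glucose leaves the activated cell as lactate.

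The libraries fall into 15 groups, 3 genotypes in 5 states. KO cells (labelled T1792 delta/delta) come from mice with a loxP-flanked cluster and CD4cre. TG cells (T1792 tg/tg) come from mice with CD4cre and a Rosa26 transgene that expresses the cluster from a CAG promoter once a loxP-flanked stop cassette is removed. WT cells are wild type. Cre is driven by Cd4 in KO and TG mice and is not named for WT mice, so an effect of Cre itself cannot be told apart from that of the cluster in a comparison with WT. The cells were naive CD4+ T cells, purified by kit from the lymph nodes and spleens of 10 pooled mice of both sexes. Naive groups were used without culture. Stimulated groups were cultured for 24 h or 48 h with IL-2 (50 U/ml) over plate-bound anti-CD28 (0.2 µg/ml) and plate-bound anti-CD3, whose coating was 0.25 µg/ml for the stimulus called very weak and 0.5 µg/ml for that called weak. There are 3 libraries each of naive KO and naive WT cells and 4 in each other group. The labels do not say that libraries of a group came from separate mice or cultures, so p-values measure the spread between these libraries, which may be technical.

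Depth hardly differed, with 19.2 to 20.8 M exonic counts per library. Summed transcripts of 6 CD4 T cell markers stood at 3570 to 4590 CPM (counts scaled to a common library size) in naive libraries of all genotypes. In stimulated cells the sum was 2330 to 3650 CPM in KO, 1760 to 2680 CPM in TG and 2290 to 3130 CPM in WT libraries. As a check of the genotypes, the Mir17 hairpin had 2 counts over 16 stimulated KO libraries and 140 over 16 stimulated TG libraries, against 57 over 16 WT libraries. In naive cells it had 3 counts in KO and 542 in TG, against 10 in WT. Stimulated KO, TG and WT libraries had 2, 191 and 61 counts for Mir18, 0, 79 and 72 for Mir19a, and 2, 151 and 83 for Mir20a. The row of the host gene, Mir17hg, did not follow the hairpin, with 37651 counts over stimulated KO libraries and 13819 over TG libraries, against 12340 over WT libraries. In bulk RNA, fewer cells of a kind and less RNA per cell cannot be told apart.

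The cluster gives rise to 6 mature microRNAs, shown here because the cluster is what the genotypes alter. They lie on mouse chromosome 14, plus strand (RefSeq, GRCm38.p6), and bases 2 to 8, the seed that pairs with a target, are in capitals.
miR-17-5p, chr14:115043684-115043706: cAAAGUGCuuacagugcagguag
miR-18a-5p, chr14:115043867-115043889: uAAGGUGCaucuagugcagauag
miR-19a-3p, chr14:115044048-115044070: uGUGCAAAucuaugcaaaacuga
miR-20a-5p, chr14:115044183-115044205: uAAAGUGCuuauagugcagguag
miR-19b-3p, chr14:115044358-115044380: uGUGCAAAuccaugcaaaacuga
miR-92a-3p, chr14:115044476-115044496: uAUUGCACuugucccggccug
miR-17 and miR-20a share a seed, as do miR-19a and miR-19b, so the cluster carries 4 seed families.

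Most of the pathway rose when WT cells were stimulated, and it did so over both intervals. Naive cells were not cultured and no group was cultured unstimulated. Effects of culture and IL-2 therefore cannot be told apart from those of the stimulus in comparisons with naive cells. At 24 h against naive cells, 23 of 34 members were higher and 5 lower (edgeR, adjusted p under 0.05). Over all genes tested, 37.6% were higher and 42.2% lower in the same comparison. The median log2 fold change was 1.17 over the members and -0.09 over all genes. At 48 h against 24 h, 26 members were higher and 2 lower, where 28.6% of all genes were higher and 26% lower. The median log2 fold change of the members at that step was 0.60, against 0.01 over all genes. Groups did not overlap for 22 members above and 5 below naive cells at 24 h (34.8% and 38.6% of all genes), and for 21 members above and 0 below at 48 h against 24 h (11% and 10.3%).

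**Figure D1:**
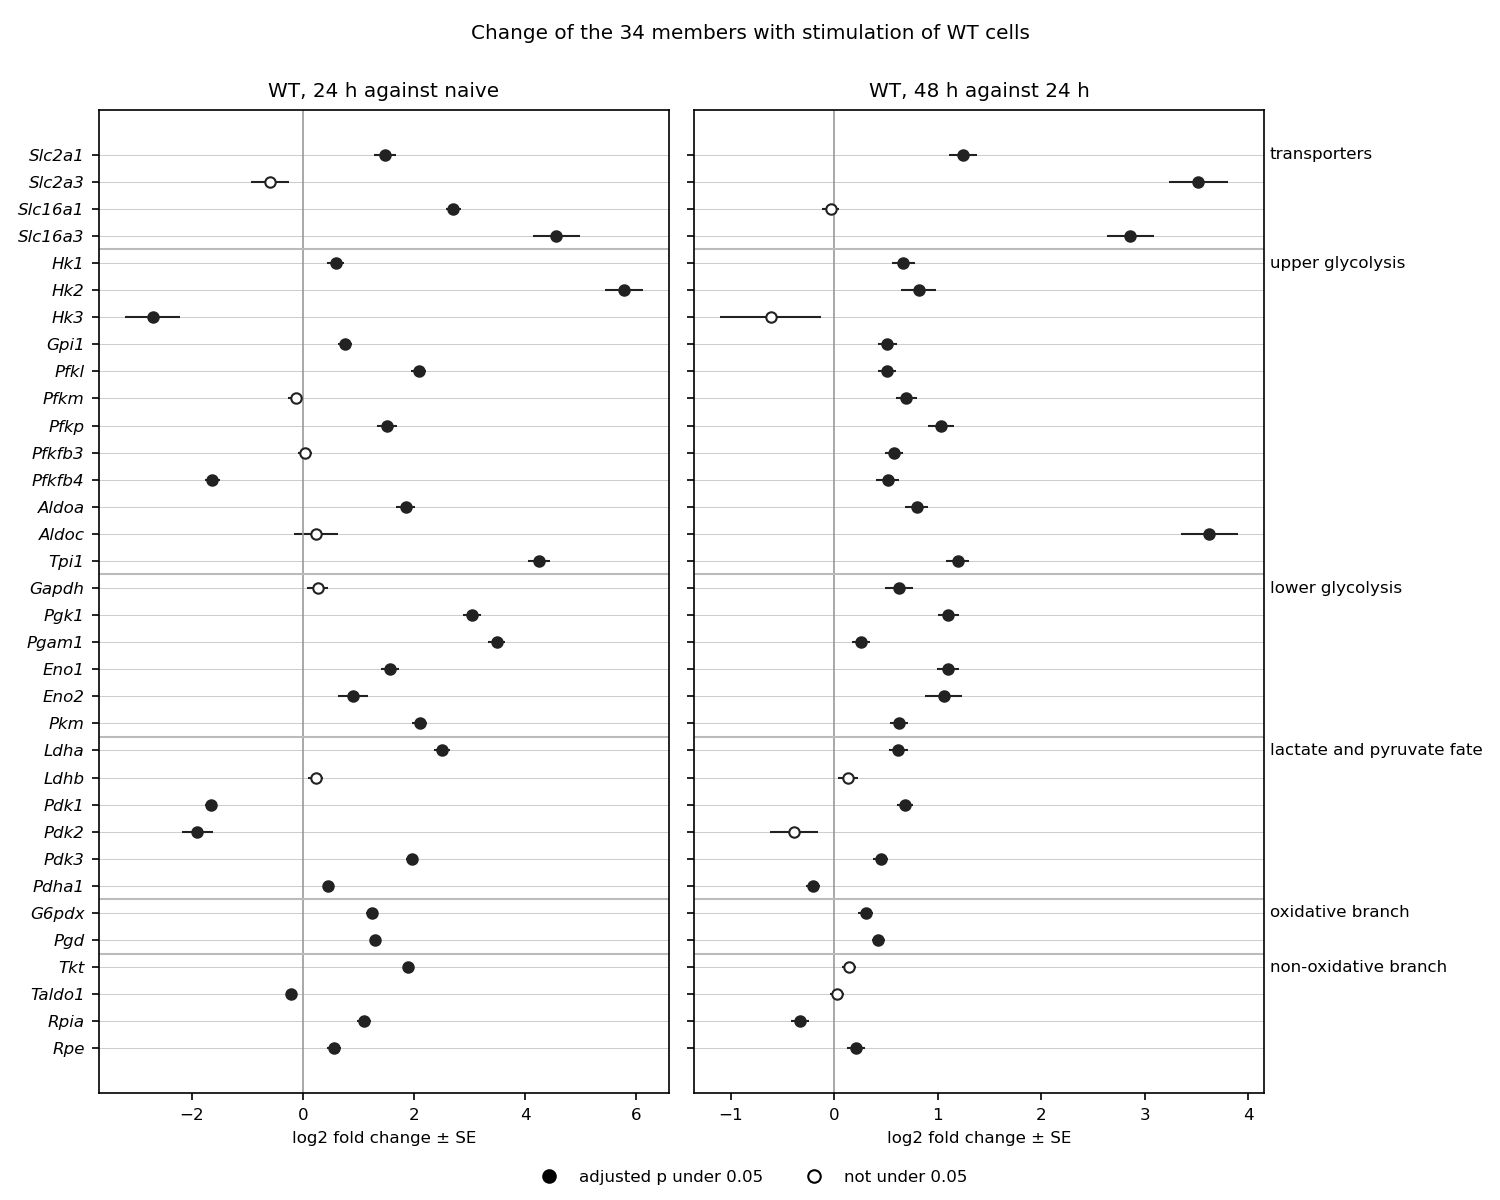
Log2 fold change (x axis, ± SE) of each of the 34 members (y axis, grouped by role) in WT cells at 24 h against naive cells (left) and at 48 h against 24 h (right), both stimulus strengths averaged, with filled points for an adjusted p under 0.05. Hk2 and Slc16a3 lie farthest right at 24 h, with 5.78 and 4.56, while Slc2a3 and Aldoc lie farthest right at 48 h, with 3.52 and 3.62.

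Among the transporters, 3 of 4 were higher at 24 h and 3 of 4 higher again at 48 h. Slc16a1 encodes the lactate transporter MCT1. Its levels were 30.3, 36.6 and 46.8 CPM in WT naive cells, 218 to 291 CPM (median 240 CPM) in 8 WT libraries at 24 h, and 206 to 291 CPM (median 243 CPM) in 8 at 48 h. It rose by 24 h (log2 fold change 2.71, SE 0.13, edgeR adjusted p = 5.57e-24) and had no further change that passed the test (-0.03, SE 0.08, edgeR adjusted p = 0.761). Slc16a3, the lactate exporter MCT4 of highly glycolytic cells, rose at both steps, by 4.56 and then 2.86 on the log2 scale. Slc2a1, the glucose transporter GLUT1, rose by 1.48 and then 1.25.

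Slc2a3, the high-affinity glucose transporter GLUT3, took another course. It stood at 70.6, 70.8 and 75.9 CPM in WT naive cells, at 36.4 to 65.6 CPM (median 47.9 CPM) at 24 h and at 203 to 980.3 CPM (median 540.4 CPM) at 48 h. All 8 WT libraries at 24 h lay below all 3 naive libraries, though the difference did not pass the test (-0.58, SE 0.34, edgeR adjusted p = 0.114). All 8 at 48 h lay above all earlier ones (48 h against 24 h, 3.52, SE 0.28, edgeR adjusted p = 2.39e-14). The spread at 48 h went with the replicate number, with replicate 2 highest and replicate 3 lowest under both stimulus strengths in WT cells.

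In upper glycolysis 7 of 12 members were higher at 24 h and 2 lower, and 11 were higher at 48 h. Hk2, the inducible hexokinase, traps glucose in the cell as glucose 6-phosphate. Its levels were 2.13, 2.25 and 3.51 CPM in WT naive cells, 80.9 to 215 CPM (median 149 CPM) at 24 h and 172 to 337 CPM (median 268 CPM) at 48 h. The change at 24 h was 5.78 on the log2 scale (SE 0.34, edgeR adjusted p = 1.32e-20), and a further 0.82 followed at 48 h (SE 0.17, edgeR adjusted p = 6.16e-05). Per kb of exon, Hk2 was the lowest of the 34 members in WT naive cells (0.477 CPM per kb). At 24 h it had 26.4 CPM per kb, beside 34.1 CPM per kb for the constitutive hexokinase Hk1. Tpi1, triosephosphate isomerase, rose by 4.25 and then 1.19.

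Hk3, the myeloid hexokinase, ran the other way, at 0.970 to 4.26 CPM in WT naive cells, 0.104 to 0.963 CPM at 24 h and 0 to 0.559 CPM at 48 h (24 h against naive, -2.70, SE 0.49, edgeR adjusted p = 3.10e-06). Markers of myeloid cells fell with it, 10 of 10 passing the test. Their summed level was 4.07 to 7.73 CPM in 16 WT stimulated libraries and 136 to 322 CPM in 3 WT naive libraries, and their part in the fall of Hk3 was not tested. Markers of B cells (6 of 6), NK cells (4 of 4), red cells (3 of 3) and CD8 T cells (2 of 2) fell at 24 h as well. No marker of the myeloid, B, NK or red cell lists was at 0 in all 16 WT stimulated libraries.

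The phosphofructokinases, which commit the sugar to glycolysis, differed among themselves. Pfkl (2.09) and Pfkp (1.51) rose by 24 h, while Pfkm had a log2 fold change of -0.13 (SE 0.14, edgeR adjusted p = 0.385) and rose only at 48 h, by 0.70. Of the bifunctional enzymes that make and break the phosphofructokinase activator fructose 2,6-bisphosphate, Pfkfb4 fell by 1.63 on the log2 scale at 24 h and regained 0.52 at 48 h. Pfkfb3 stood at 0.04 at 24 h (SE 0.12, edgeR adjusted p = 0.785) and rose by 0.58 at 48 h. Aldoa, the aldolase of most tissues, rose at both steps, by 1.85 and 0.80. Aldoc, a second aldolase, had 1.63, 1.99 and 2.27 CPM in WT naive cells, 1.53 to 2.99 CPM (median 2.27 CPM) at 24 h and 10.2 to 49.8 CPM (median 31.0 CPM) at 48 h. Like Slc2a3 it was late: 0.24 at 24 h (SE 0.40, edgeR adjusted p = 0.585), then 3.62 (SE 0.28, edgeR adjusted p = 4.25e-15).

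In lower glycolysis 5 of 6 members rose at 24 h and 6 of 6 at 48 h. The rise of Pgam1 at 48 h (0.26) was lost without replicate 2, 3 or 4 (edgeR adjusted p = 0.108, 0.0683 and 0.0605). Pgam1 (phosphoglycerate mutase) and Pgk1 (phosphoglycerate kinase) rose most at 24 h, by 3.49 and 3.04 on the log2 scale. Pkm, pyruvate kinase, stood at 574, 633 and 656 CPM in WT naive cells, at 2514 to 2867 CPM at 24 h and at 3461 to 5081 CPM at 48 h. Eno1, the main enolase, had 232, 253 and 273 CPM in WT naive cells, 652 to 886 CPM at 24 h and 1184 to 1919.5 CPM at 48 h. For both genes each state lay above the state before it in every WT library. Gapdh is not well measured here, at 2.03 to 10.8 CPM in all libraries. Of all stretches of 76 bases (the read length) in 1 transcript of it, 88.1% also occur in transcripts of other genes. Over all its annotated transcripts 22.5% do, shared with 118 other genes, 112 of them pseudogenes. The share in 1 transcript is 67.5% for Pgk1, 65.2% for Eno1 and 40.6% for Pgam1, above 10% for 10 members and 0 for 17, so the levels of these 4 are uncertain in so far as the counting split or dropped shared reads.

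At the pyruvate branch point, Ldha, the lactate dehydrogenase subunit that favours lactate, rose by 2.51 at 24 h and by 0.62 at 48 h. Ldhb, the subunit that favours pyruvate, had log2 fold changes of 0.23 and 0.13 that did not pass the test. The kinases that switch off pyruvate dehydrogenase parted ways by 24 h: Pdk1 fell by 1.66 and Pdk2 by 1.90, while Pdk3 rose by 1.96. Pdha1, a subunit of pyruvate dehydrogenase itself, rose by 0.46 at 24 h and fell by 0.21 at 48 h, a fall lost without replicate 2 or 3 (edgeR adjusted p = 0.0576 and 0.0596). Per kb of exon, Ldha had the highest mean of the 34 members in WT cells at each time, with 229.9, 1306 and 2007 CPM per kb in naive cells, at 24 h and at 48 h.

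Both genes of the oxidative pentose phosphate branch rose at both steps. G6pdx, glucose-6-phosphate dehydrogenase, had 47.7, 53.5 and 54.0 CPM in WT naive cells, 112 to 128 CPM at 24 h and 141 to 168 CPM at 48 h. Pgd, 6-phosphogluconate dehydrogenase, had 81.5, 86.0 and 87.8 CPM in WT naive cells, 197 to 226 CPM at 24 h and 252 to 314 CPM at 48 h. For both genes the 3 states did not overlap. In the non-oxidative branch Tkt (transketolase) rose by 1.90 and Rpia (ribose 5-phosphate isomerase) by 1.10 at 24 h. At 48 h Rpia was lower than at 24 h by 0.33 on the log2 scale, and Rpe, ribulose 5-phosphate epimerase, was higher (0.21, edgeR adjusted p = 0.0338). The call of Rpe was lost without replicate 2, 3 or 4 (edgeR adjusted p = 0.0693, 0.11 and 0.131) and with no filter on low counts (0.0530). Taldo1 (transaldolase) had -0.21 (edgeR adjusted p = 0.0308), a call lost with no filter on low counts (adjusted p = 0.182), without replicates 1, 2 or 4 (edgeR adjusted p = 0.289, 0.200 and 0.103) and without WT naive replicate 1 (0.0548).

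**Figure D2:**
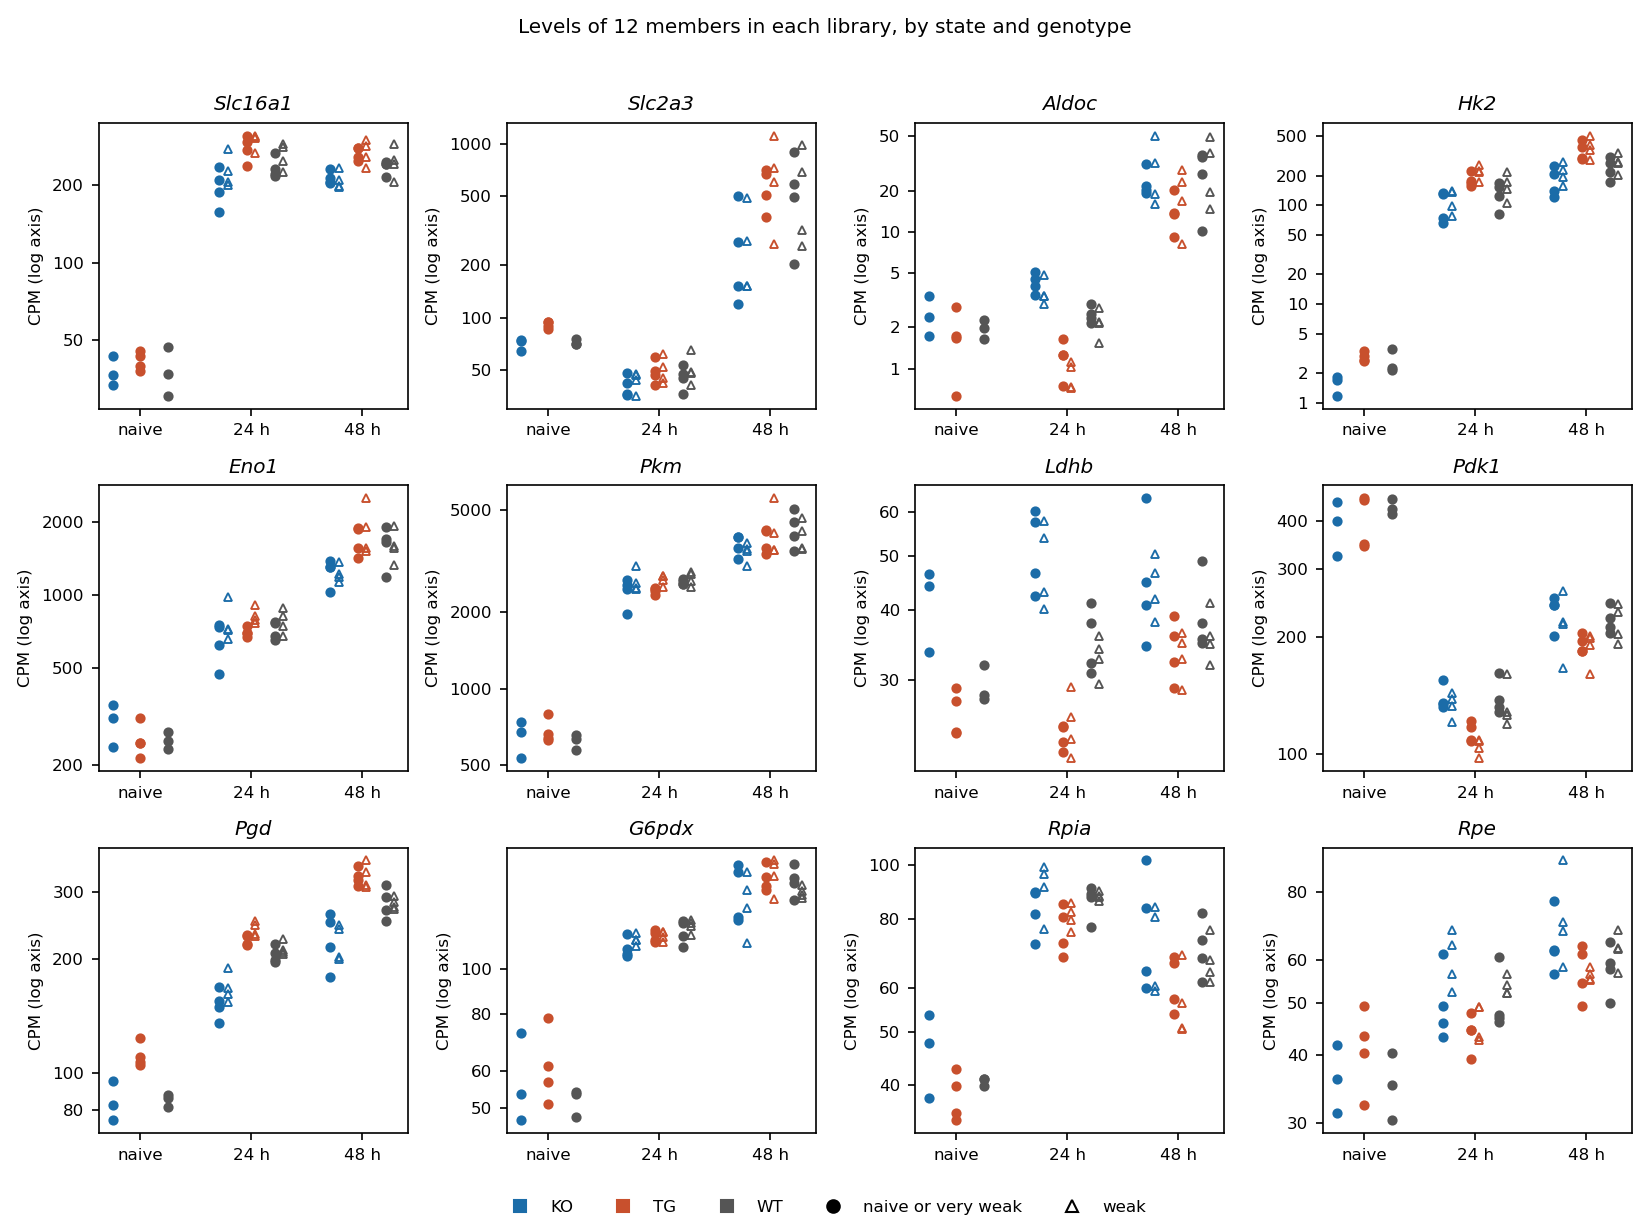
CPM (log axis) of the 2 members of each role with the smallest adjusted p in the genotype comparisons, in naive cells and at 24 h and 48 h, with 1 point per library, KO in blue, TG in red and WT in grey, circles for naive cells or the very weak stimulus and triangles for the weak stimulus. Hk2, Slc16a1 and Pgd show TG libraries above and KO libraries below most WT libraries after stimulation. Ldhb shows the opposite at 24 h, while at 48 h its TG and WT libraries overlap. Slc2a3 and Aldoc rise between 24 h and 48 h in all genotypes.

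The promoters of Hk2, Slc16a1 and Ldha, 3 of the genes that rose at 24 h, are printed with every ACGTG, on either strand, in capitals (RefSeq promoters, GRCm38.p6, from 250 bases before to 50 after the start, in the direction of transcription). ACGTG lies within both the hypoxia response element and the CACGTG form of the E-box.
Hk2, chr6:82774405-82774704, minus strand: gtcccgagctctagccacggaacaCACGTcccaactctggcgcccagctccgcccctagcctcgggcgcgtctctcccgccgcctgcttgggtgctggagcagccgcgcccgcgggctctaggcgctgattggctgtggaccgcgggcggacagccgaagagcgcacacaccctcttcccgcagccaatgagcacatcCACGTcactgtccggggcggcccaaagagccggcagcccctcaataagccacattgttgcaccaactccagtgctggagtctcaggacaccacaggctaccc
Slc16a1, chr3:104638414-104638713, plus strand: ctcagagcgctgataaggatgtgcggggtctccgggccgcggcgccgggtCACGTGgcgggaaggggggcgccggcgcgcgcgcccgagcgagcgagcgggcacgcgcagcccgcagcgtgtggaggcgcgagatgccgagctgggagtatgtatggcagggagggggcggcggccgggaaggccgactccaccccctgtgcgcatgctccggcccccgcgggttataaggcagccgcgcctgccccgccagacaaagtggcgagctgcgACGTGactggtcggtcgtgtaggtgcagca
Ldha, chr7:46845554-46845853, plus strand: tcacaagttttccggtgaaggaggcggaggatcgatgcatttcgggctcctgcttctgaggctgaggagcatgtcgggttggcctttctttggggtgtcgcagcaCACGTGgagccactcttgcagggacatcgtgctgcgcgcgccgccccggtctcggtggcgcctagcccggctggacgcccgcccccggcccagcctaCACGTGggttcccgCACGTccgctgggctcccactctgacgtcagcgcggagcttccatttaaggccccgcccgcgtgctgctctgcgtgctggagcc
Hk2 holds no CACGTG, Slc16a1 holds 1 and Ldha holds 2. Counted in the first listed promoter of each gene, ACGTG on either strand was present in 15 of 33 members with a promoter entry (45.5%), against 25.8% of 10795 tested genes. Among other members that rose strongly at 24 h, Slc16a3, Pgk1 and Pgam1 hold an ACGTG, while Tpi1, Pkm and Pfkl hold none. The full CACGTG, which contains an ACGTG on each strand, was present in 4 of 33 members (12.1%), against 10.1%. A match describes letters and is not a binding site.

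Intronic counts, from the second deposited table, gave another readout of the same libraries for 32 members. Introns held 15.2% to 18.4% of the counts of both tables in WT libraries at 24 h and 24.5% to 30.7% in WT naive libraries, each table was scaled to its own total, and the part of that shift in the values that follow was not tested. At 24 h against naive WT cells, 11 of 32 were higher and 8 lower in introns (31% and 32.9% of 12366 genes). Hk2 rose in introns nearly as it did in exons, by 4.99 against 5.78 on the log2 scale, and Tpi1 by 2.48 against 4.25. Several other members with large exonic rises passed no test in introns. For Ldha, Slc16a1, Pgam1 and Pfkl the intronic log2 fold changes were 0.06, 0.001, -0.05 and -0.001 (edgeR adjusted p = 0.795, 0.999, 0.863 and 0.998). Tested directly, the exonic change exceeded the intronic one by 2.45 for Ldha (edgeR adjusted p = 1.28e-16), by 2.71 for Slc16a1 (1.15e-09), by 3.54 for Pgam1 (9.53e-20) and by 2.09 for Pfkl (6.32e-13). For Hk2 the exonic and intronic changes were not told apart (difference 0.77, edgeR adjusted p = 0.256). How many of the 11350 genes tested for this difference passed at 24 h is not given here. Gapdh, uncertain in exons, rose by 1.11 in introns (edgeR adjusted p = 5.05e-07).

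At 48 h against 24 h in WT cells, 20 of 32 members were higher and 2 lower in introns (16.8% and 16.6% of all genes). Slc16a3 rose in introns by 2.62, Slc2a3 by 2.38 and Pgd by 1.14. Ldha, Pfkl and Slc16a1, which had passed no intronic test at 24 h, were now higher by 0.74, 0.60 and 0.78 (edgeR adjusted p = 1.21e-05, 0.000912 and 0.0154). Hk3 fell in introns (-1.28, edgeR adjusted p = 0.00521), as did Tkt (-0.39, 0.00108). Of exonic minus intronic changes 5 members passed at this step: Pfkm (0.78, edgeR adjusted p = 0.000972), Pfkfb3 (0.62, 0.0105) and Tkt (0.54, 0.000372) above 0, Slc16a1 (-0.81, 0.0256) and Pgd (-0.71, 0.00119) below. The share of the 11350 genes tested that passed at this step is not given here.

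**Figure D3:**
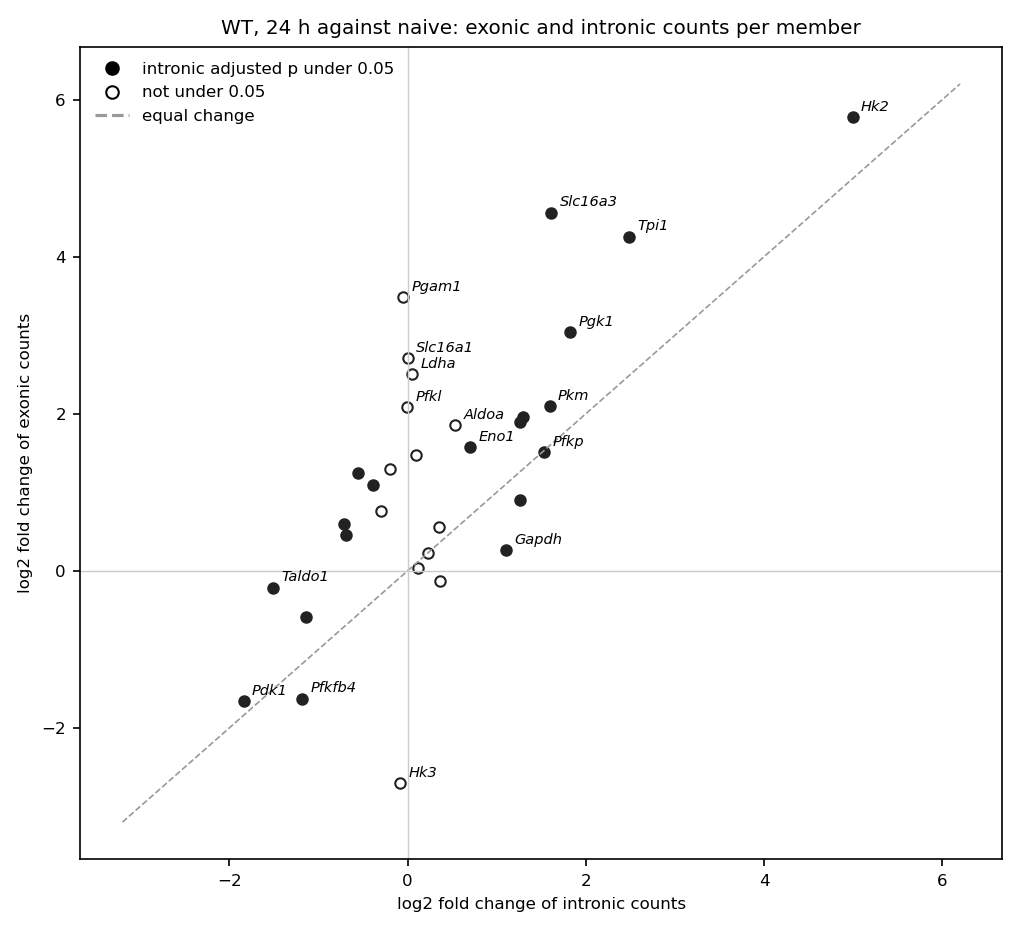
Log2 fold change of exonic counts (y axis) against that of intronic counts (x axis) for 32 members in WT cells at 24 h against naive cells, filled where the intronic change had an adjusted p under 0.05, with a dashed line of equal change. Pgam1, Slc16a1, Ldha and Pfkl lie near 0 on the x axis, while Hk2 lies near the dashed line at 4.99 in introns and 5.78 in exons.

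No member passed the test for the weak against the very weak stimulus, averaged over genotypes and times (1.03% of all genes passed in either direction; 4 members had an unadjusted p under 0.05, and DESeq2 also called 0). With the replicate number as a block in the fit, Hk2 was higher (0.21, edgeR adjusted p = 0.0155) and Pdk2 lower (-0.36, edgeR adjusted p = 0.0307) under the weak stimulus.

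In naive cells 0 members passed in KO against WT by edgeR (0.0365% of all genes passed; 1 member, Ldhb, had an unadjusted p under 0.05, and DESeq2 also called 0). Ldhb had 33.6, 44.2 and 46.3 CPM in KO naive cells and 27.7, 28.2 and 31.8 CPM in WT naive cells, so that the groups did not overlap, and its log2 fold change was 0.50 (edgeR adjusted p = 0.545). Hk2 was the other member whose groups did not overlap, with 1.17, 1.71 and 1.82 CPM in KO and 2.13, 2.25 and 3.51 CPM in WT naive cells. Such separation was seen for 4.49% of all genes above and 4.56% below WT.

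In TG naive cells, 1 member was higher and 1 lower than in WT (4.33% and 3.5% of all genes). Pgd had 105, 107, 110.2 and 124 CPM in TG and 81.5, 86.0 and 87.8 CPM in WT naive cells (0.39, SE 0.10, edgeR adjusted p = 0.00592). Its call was lost without replicate 2 of all genotypes (edgeR adjusted p = 0.0580) and without WT naive replicate 2 (0.0524). Pfkfb4 had 10.3, 10.3, 11.8 and 12.3 CPM in TG and 16.3, 19.3 and 20.8 CPM in WT naive cells (-0.75, SE 0.16, edgeR adjusted p = 0.00139). Neither gene's groups overlapped, as was so for 4 members above and 2 below WT (11.1% and 11.6% of all genes). Without replicate 3 of all genotypes, Pfkfb3 was called lower as well (-0.38, edgeR adjusted p = 0.0393). Pdk2, at 16.8 to 23.2 CPM in TG against 10.4 to 12.3 CPM in WT naive cells, passed only with the replicate number as a block (0.74, edgeR adjusted p = 0.0346).

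Averaged over the 4 stimulated states, 1 member was higher and 8 were lower in KO than in WT (13% and 11.4% of all genes), and 3 were higher and 7 lower in TG than in WT (16.1% and 17.7%). Median log2 fold changes of the members were -0.10 in KO and -0.05 in TG, and those of all genes -0.001 and -0.006. Both comparisons use the same 16 WT libraries. Of the members called in either, 4 were called in both: Hk2, Pgd and Slc16a1 were lower in KO and higher in TG, and Ldhb was higher in KO and lower in TG. How many of all genes were called in both, or in opposite directions, was not counted. No member reached a fold change of 2 in either comparison, and none had groups of 16 libraries that did not overlap, against 0.160% of all genes above and 0.00729% below WT in KO and 0.168% and 0.328% in TG.

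**Figure D4:**
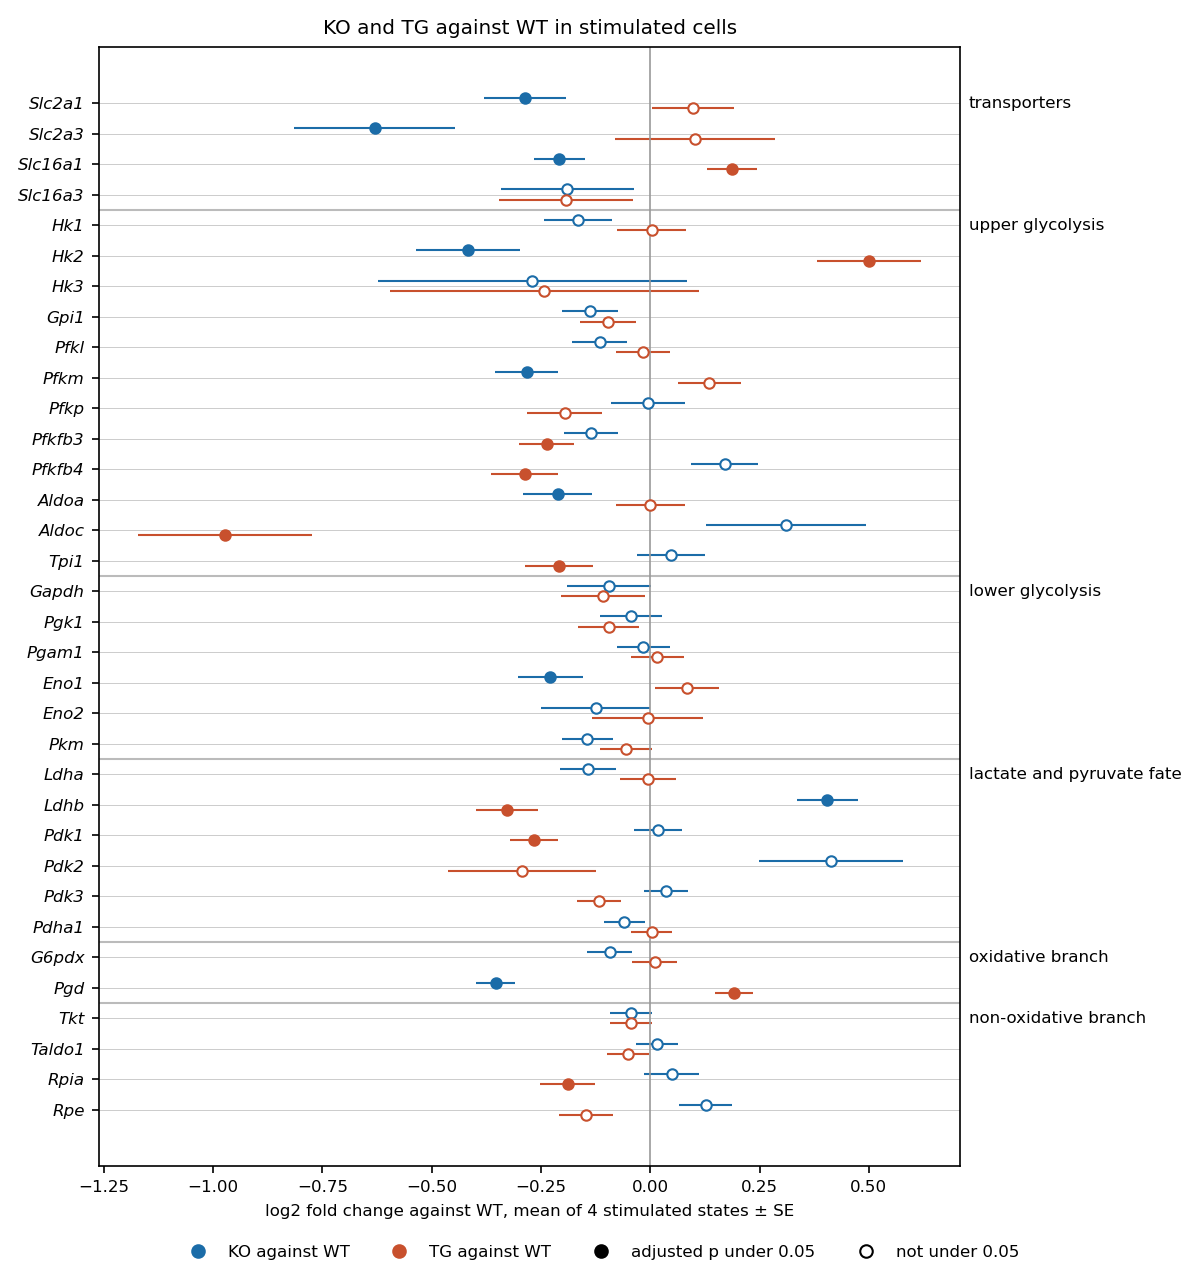
Log2 fold change against WT (x axis, ± SE), averaged over 4 stimulated states, for the 34 members by role (y axis), KO in blue and TG in red, filled where the adjusted p was under 0.05. Hk2, Slc16a1 and Pgd have filled points left of 0 for KO and right of 0 for TG, Ldhb has them the other way round, and Aldoc in TG lies farthest from 0 at -0.97.

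Of the transporters, 3 of 4 were lower in KO and 1 of 4 was higher in TG. Slc16a1 had 158 to 278 CPM (median 207 CPM) in KO, 239 to 312 CPM (median 301 CPM) in TG and 218 to 291 CPM (median 240 CPM) in WT libraries at 24 h. After 48 h it had 196 to 233 CPM (median 208 CPM) in KO, 234 to 302 CPM (median 270 CPM) in TG and 206 to 291 CPM (median 243 CPM) in WT. The ranges overlapped, but in libraries of the same state and replicate number it was lower in KO than in WT in 16 of 16 pairs and higher in TG in 16 of 16. The log2 fold changes were -0.21 in KO (SE 0.06, edgeR adjusted p = 0.00616) and 0.19 in TG (SE 0.06, edgeR adjusted p = 0.00995). Without replicate 4 they were -0.19 and 0.16 and missed the threshold (edgeR adjusted p = 0.0517 and 0.0761).

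Slc2a3 was lower in KO in 16 of 16 such pairs. At 24 h it had 35.8 to 48.2 CPM (median 43.1 CPM) in KO, 41.5 to 61.7 CPM (median 48.1 CPM) in TG and 36.4 to 65.6 CPM (median 47.9 CPM) in WT. Its levels at 48 h were 121 to 503 CPM (median 213 CPM) in KO, 267 to 1108 CPM (median 637 CPM) in TG and 203 to 980.3 CPM (median 540.4 CPM) in WT. The groups overlapped widely at 48 h, where replicate 2 was highest in each genotype under both stimulus strengths. Its log2 fold change was -0.63 in KO (SE 0.18, edgeR adjusted p = 0.00911), lost without replicate 4 (-0.55, edgeR adjusted p = 0.142), and 0.10 in TG (SE 0.18), which did not pass. Slc2a1 was lower in KO by 0.29 on the log2 scale (edgeR adjusted p = 0.0203), lost without replicate 1 (0.0720) or 4 (0.223).

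In upper glycolysis, 3 of 12 members were lower in KO, and in TG 1 was higher and 4 lower. Hk2 had 66.7 to 140 CPM (median 114 CPM) in KO, 157 to 257 CPM (median 197 CPM) in TG and 80.9 to 215 CPM (median 149 CPM) in WT libraries at 24 h. By 48 h it stood at 121 to 273 CPM (median 200.2 CPM) in KO, 289.9 to 505 CPM (median 378 CPM) in TG and 172 to 337 CPM (median 268 CPM) in WT. All 8 TG libraries lay above all 8 KO libraries at each time, and WT libraries overlapped both. The share of all genes with TG and KO so separated at a single time was not counted, here or for Aldoc, Eno1 and Pgd below. Hk2 was lower in KO in 16 of 16 pairs and higher in TG in 16 of 16, with log2 fold changes of -0.42 (SE 0.12, edgeR adjusted p = 0.00749) and 0.50 (SE 0.12, edgeR adjusted p = 0.000827). Without replicate 4 the KO value was -0.36 and missed the threshold (edgeR adjusted p = 0.104).

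Aldoc moved most of all members in TG. It had 2.96 to 5.06 CPM (median 3.76 CPM) in KO, 0.723 to 1.64 CPM (median 1.07 CPM) in TG and 1.53 to 2.99 CPM (median 2.27 CPM) in WT at 24 h. At 48 h libraries had 15.9 to 50.5 CPM (median 21.0 CPM) in KO, 8.18 to 28.5 CPM (median 15.3 CPM) in TG and 10.2 to 49.8 CPM (median 31.0 CPM) in WT. At 24 h all KO libraries lay above all TG libraries and each group overlapped the edge of the WT range, whereas at 48 h all 3 ranges overlapped. In TG it was lower in 15 of 16 pairs (-0.97, SE 0.20, edgeR adjusted p = 0.000123). In KO it was higher in 11 of 16 pairs and did not pass (0.31, SE 0.18). The other members lower in TG were Pfkfb4 (-0.29, edgeR adjusted p = 0.00307), Pfkfb3 (-0.24, 0.00251) and Tpi1 (-0.21, 0.0325). Pfkfb3 was lost without replicate 2 (edgeR adjusted p = 0.0554), and Tpi1 without replicate 1, 2 or 4 (0.0851, 0.0615 and 0.183). Pfkm was lower in KO (-0.28, edgeR adjusted p = 0.00289), as was Aldoa (-0.21, 0.0435). The call of Aldoa was lost without replicate 1, 2 or 4 (edgeR adjusted p = 0.133, 0.0682 and 0.264).

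In lower glycolysis 1 of 6 members was lower in KO and 0 passed in TG. Eno1 had 474 to 984 CPM (median 722 CPM) in KO, 675 to 915 CPM (median 759 CPM) in TG and 652 to 886 CPM (median 756 CPM) in WT at 24 h, and the 3 ranges overlapped. After 48 h it had 1030.0 to 1377 CPM (median 1263 CPM) in KO, 1421 to 2506 CPM (median 1717 CPM) in TG and 1184 to 1919.5 CPM (median 1629 CPM) in WT, so that KO lay wholly below TG. Its KO value was -0.23 (SE 0.07, edgeR adjusted p = 0.0190), lost without replicate 1 or 4 (edgeR adjusted p = 0.105 and 0.160). Pkm had 1964 to 3029 CPM in KO, 2322 to 2776 CPM in TG and 2514 to 2867 CPM in WT at 24 h. Its levels at 48 h were 3029 to 3949 CPM in KO, 3369 to 5584 CPM in TG and 3461 to 5081 CPM in WT. It did not pass in either comparison.

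At the pyruvate branch point 1 of 6 members was higher in KO and 2 were lower in TG. Ldhb had 40.2 to 60.1 CPM (median 50.2 CPM) in KO, 21.7 to 29.1 CPM (median 24.1 CPM) in TG and 29.5 to 41.3 CPM (median 33.3 CPM) in WT at 24 h. By 48 h it stood at 34.6 to 63.5 CPM (median 43.4 CPM) in KO, 28.7 to 39.1 CPM (median 33.8 CPM) in TG and 31.9 to 49.0 CPM (median 35.7 CPM) in WT. At 24 h every TG library lay below every WT library, and only the lowest KO library fell within the WT range. Ldhb was higher in KO in 15 of 16 pairs (0.41, SE 0.07, edgeR adjusted p = 1.88e-05) and lower in TG in 14 of 16 (-0.33, SE 0.07, edgeR adjusted p = 0.000264).

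Pdk1 had 121 to 156 CPM (median 135 CPM) in KO, 97.7 to 122 CPM (median 108 CPM) in TG and 119 to 161 CPM (median 130.4 CPM) in WT at 24 h. At 48 h libraries had 166 to 263 CPM (median 230.5 CPM) in KO, 161 to 206 CPM (median 194 CPM) in TG and 192 to 245 CPM (median 218 CPM) in WT. TG libraries lay at the low end, and the KO and WT ranges overlapped. It was lower in TG in 15 of 16 pairs (-0.27, SE 0.06, edgeR adjusted p = 0.000131), and its KO value was 0.02. Ldha had -0.14 in KO and -0.01 in TG and did not pass in either.

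In the oxidative branch Pgd passed in both genotypes, with the smallest adjusted p of the 34 members in KO, and G6pdx passed in neither. Pgd had 136 to 189 CPM (median 159 CPM) in KO, 218 to 252 CPM (median 230.3 CPM) in TG and 197 to 226 CPM (median 208 CPM) in WT at 24 h. After 48 h it had 180 to 263 CPM (median 227 CPM) in KO, 310.3 to 363 CPM (median 327 CPM) in TG and 252 to 314 CPM (median 279 CPM) in WT. Every KO library lay below every WT library at 24 h, as 0.941% of all genes did, and every TG library lay above every KO library at both times. Pgd was lower in KO in 16 of 16 pairs (-0.35, SE 0.04, edgeR adjusted p = 1.73e-08) and higher in TG in 16 of 16 (0.19, SE 0.04, edgeR adjusted p = 0.000476). G6pdx had 106 to 120 CPM in KO, 114 to 122 CPM in TG and 112 to 128 CPM in WT at 24 h. Its levels at 48 h were 114 to 168 CPM in KO, 142 to 172 CPM in TG and 141 to 168 CPM in WT.

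In the non-oxidative branch 1 of 4 members was lower in TG. Rpia had 71.9 to 99.4 CPM (median 89.2 CPM) in KO, 68.3 to 85.3 CPM (median 80.2 CPM) in TG and 77.3 to 91.0 CPM (median 87.9 CPM) in WT at 24 h. By 48 h it stood at 59.3 to 102 CPM (median 72.5 CPM) in KO, 50.5 to 68.7 CPM (median 56.7 CPM) in TG and 61.4 to 82.1 CPM (median 67.6 CPM) in WT. It was lower in TG in 16 of 16 pairs although the ranges overlapped (-0.19, SE 0.06, edgeR adjusted p = 0.0161), a call lost without replicate 1, 2 or 4 (edgeR adjusted p = 0.0549, 0.0889 and 0.0663). Rpe had 43.2 to 68.2 CPM in KO, 39.4 to 49.0 CPM in TG and 46.1 to 60.7 CPM in WT at 24 h. At 48 h libraries had 56.6 to 91.6 CPM in KO, 49.4 to 63.7 CPM in TG and 50.0 to 68.2 CPM in WT, and it did not pass against WT.

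Pairs of equal state and number recur with the same 4 numbers in every state, so 16 pairs are not 16 independent ones. Adding up the counts of the 4 stimulated states leaves 4 sums per genotype. The sums of Hk2 were 175, 198, 108 and 124 CPM in KO (replicates 1 to 4), 318, 336, 228 and 265 CPM in TG and 218, 258, 141 and 189 CPM in WT. Those of Slc2a3 were 129, 271, 87.6 and 126 CPM in KO, 377, 469, 185 and 303 CPM in TG and 229, 503, 136 and 345 CPM in WT. Within a genotype replicate 3 was lowest and replicate 2 highest for both genes, and within each number KO was lowest for both.

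Without regard to the numbers, the sums gave 2 calls in KO (Pgd and Slc16a1) and 2 in TG (Slc16a1 and Pdk1), and the value of Slc2a3 in KO was then -0.98 (edgeR adjusted p = 0.200). Hk2 then passed neither in KO (-0.41, edgeR adjusted p = 0.288) nor in TG (0.51, 0.137). Ldhb likewise failed in KO (0.41, edgeR adjusted p = 0.0586) and TG (-0.31, 0.0928), as did Aldoc (-0.83, 0.147) and Pgd (0.19, 0.0882) in TG. With the number as a block the sums gave 10 calls in KO and 9 in TG. In TG these were 9 of the 10 members called over single libraries, all but Tpi1 (edgeR adjusted p = 0.104). In KO they were the same 9 and Slc16a3, which was lower (-0.40, edgeR adjusted p = 0.0237). Among single libraries the block added Hk1 (-0.16, edgeR adjusted p = 0.0395) and Pdk2 (0.38, 0.0168) in KO. In TG it added Pfkp (-0.19, edgeR adjusted p = 0.00768), Pdk3 (-0.12, 0.0311) and Rpe (-0.15, 0.0242). Without replicate 4 the count in KO was 3. Shares of all genes called are not given, here or below, for sums, blocks or left-out replicates, so such counts describe the members alone.

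**Figure D5:**
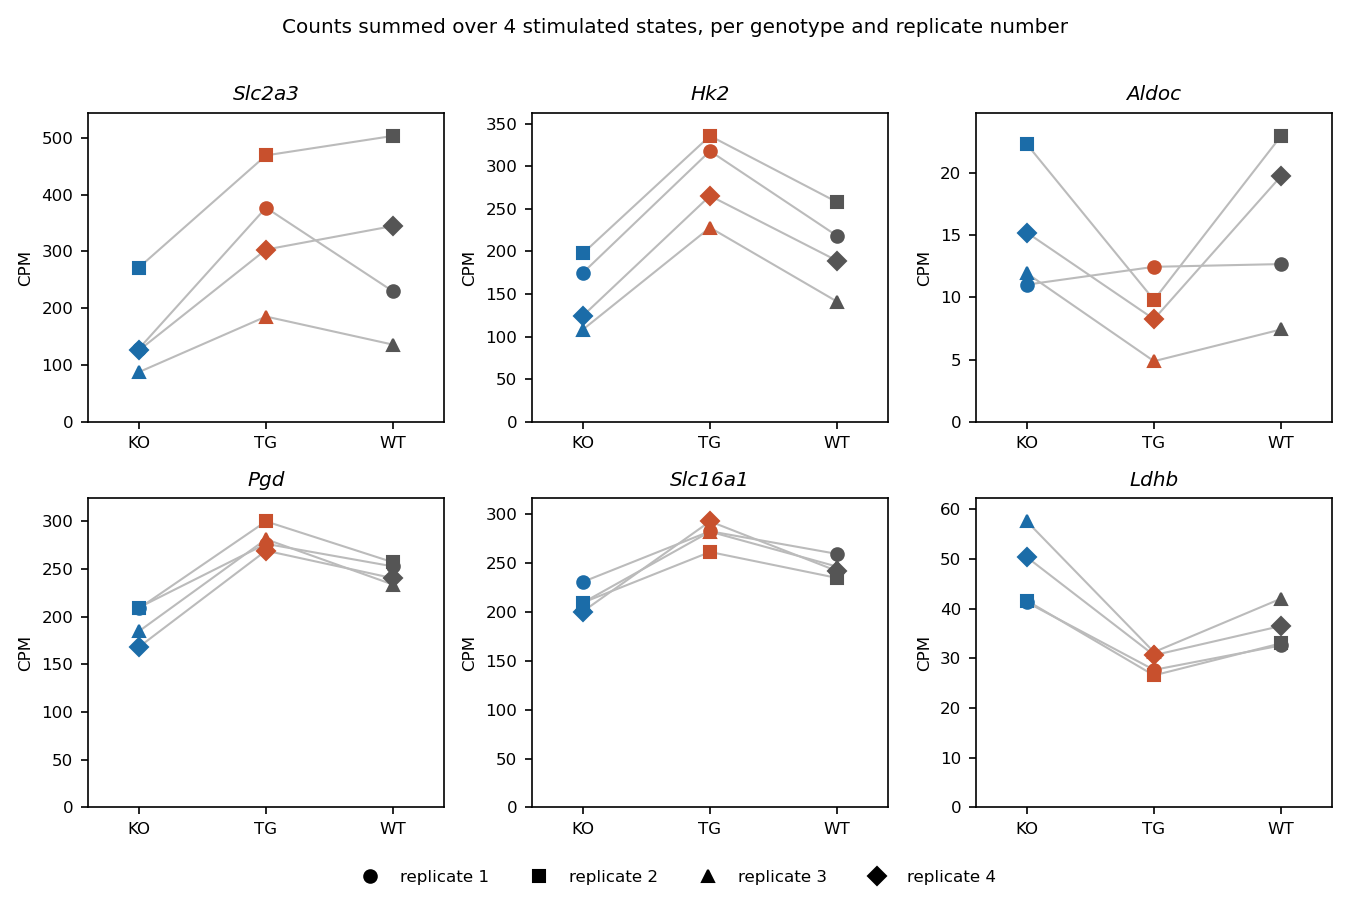
CPM (y axis, from 0) of 6 members in counts summed over the 4 stimulated states, 1 point per genotype (KO, TG and WT along the x axis) and replicate number, with lines joining sums of the same number. For Hk2, Pgd and Slc16a1 each line has KO lowest and TG highest, for Ldhb the reverse, and for Slc2a3 replicate 2 lies highest in each genotype.

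TG against KO, which leaves out the WT libraries and sets cells with Cre on both sides, gave 8 members higher and 9 lower (28.3% and 29.7% of all genes). The higher ones were Hk2 (0.92, SE 0.12, edgeR adjusted p = 5.93e-09), Slc2a3 (0.73), Pgd (0.55), Pfkm (0.42), Slc16a1 (0.39), Slc2a1 (0.39), Eno1 (0.31) and Aldoa (0.21). The lower ones were Aldoc (-1.28, SE 0.20, edgeR adjusted p = 1.90e-07), Ldhb (-0.73), Pdk2 (-0.71), Pfkfb4 (-0.46), Pdk1 (-0.28), Rpe (-0.27), Tpi1 (-0.26), Rpia (-0.24) and Pdk3 (-0.15). By role, 3 of 4 transporters were higher and none lower, and 4 of 6 genes at the pyruvate branch point were lower and none higher. Groups of 16 libraries overlapped for every member, while 1.07% of all genes lay wholly above and 1.64% wholly below KO. In sums over states 11 of the members passed. Aldoc did not (-0.78, edgeR adjusted p = 0.0953), nor did Pdk2 (0.0567), Slc2a1 (0.0510), Tpi1 (0.198), Aldoa (0.219) and Pdk3 (0.111), and Slc2a3 passed narrowly (1.11, 0.0498). With the replicate block on single libraries Hk1 (0.17, edgeR adjusted p = 0.0128) and Ldha (0.14, 0.0477) were called higher as well, and Pfkp (-0.17, 0.00706) lower. With the block on the sums Hk1 and Ldha were called higher too, as was Slc16a3 (0.44, edgeR adjusted p = 0.00453), while Pfkp (-0.20, 0.0512) and Tpi1 (-0.19, 0.0501) were not called. The call of Aldoa was lost without replicate 1 or 4 (edgeR adjusted p = 0.0995 and 0.0625), and that of Pdk3 without replicate 2 (0.0978).

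Split by time, the KO comparison had 1 member higher (Ldhb, 0.55) and 1 lower (Pgd, -0.39) at 24 h, where 4.14% and 3.49% of all genes passed. At 48 h there were 0 higher and 7 lower (10.8% and 8.64%): Slc2a3 (-1.06), Slc2a1 (-0.38), Eno1 (-0.37), Pfkm (-0.37), Pgd (-0.32), Ldha (-0.28) and Gpi1 (-0.25), Gpi1 being glucose-6-phosphate isomerase. The count at 48 h was 3 without replicate 1, 4 without replicate 2, 11 without replicate 3 and 1, Pgd, without replicate 4. Slc2a1, Ldha and Gpi1 were lost without replicate 1, 2 or 4, Eno1 without 1 or 4, and Pfkm and Slc2a3 without 4 (edgeR adjusted p = 0.0520 to 0.241 over these). With the replicate block 6 members were called at 24 h, Hk2 (-0.45, edgeR adjusted p = 0.00104), Aldoc (0.78, 0.0271), Slc16a1 (-0.23, 0.0413) and Pdha1 (-0.16, 0.0322) being added. At 48 h 11 were called with it, Hk2 (-0.40, edgeR adjusted p = 0.00140), Slc16a3 (-0.47, 0.00381), Aldoa (-0.25, 0.0261) and Ldhb (0.26, 0.00463) being added.

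In TG 0 members were higher and 6 lower at 24 h (7.22% and 7.69% of all genes): Aldoc (-1.14), Ldhb (-0.49), Pfkfb4 (-0.44), Pdk1 (-0.32), Tpi1 (-0.31) and Pdk3 (-0.21). Ldhb and Pdk3 had no overlap with WT, as 2.35% of all genes had below WT. At 48 h 2 were higher, Hk2 (0.55) and Pgd (0.24), and 4 lower, Aldoc (-0.80), Pfkfb3 (-0.27), Rpia (-0.23) and Pdk1 (-0.21), with 12.1% and 14% of all genes. Leaving out replicates 1 to 4 in turn gave 4, 4, 3 and 3 calls at 24 h and 3, 2, 6 and 1 at 48 h, Pgd being the call left without replicate 4. At 24 h the call of Tpi1 was lost without any 1 of replicates 1 to 4 (edgeR adjusted p = 0.201, 0.109, 0.0544 and 0.111), with RLE size factors (0.0520) and with no filter on low counts (0.0587). That of Pdk3 was also lost without any 1 of them (edgeR adjusted p = 0.0686, 0.165, 0.0710 and 0.0951). Pdk1 was lost without replicate 2 (edgeR adjusted p = 0.115), Pfkfb4 without replicate 3 (0.0535) and Aldoc without replicate 4 (0.0605). At 48 h Hk2 was lost without replicate 1 or 4, Aldoc without 2 or 4, Pfkfb3 and Rpia without 1, 2 or 4, Pdk1 without 2, 3 or 4, and Pgd without 3 (edgeR adjusted p = 0.0513 to 0.278 over these). Pdk1 and Rpia were also lost at 48 h with no filter on low counts (edgeR adjusted p = 0.06045 and 0.07169). With the replicate block 10 were called at 24 h, Hk2 (0.49, edgeR adjusted p = 0.000147) and Slc16a1 (0.23, 0.0269) being added as higher, Slc16a3 (-0.41, 0.0195) and Rpe (-0.20, 0.0462) as lower. At 48 h it added Pfkp (-0.23, edgeR adjusted p = 0.0208) and Eno2 (-0.43, 0.0484) as lower.

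No member passed for the KO effect at 48 h minus that at 24 h (0.781% of all genes passed, 6 members had an unadjusted p under 0.05 and DESeq2 called 0). For TG, 0 passed (1.85% of all genes, 3 members with an unadjusted p under 0.05). DESeq2, and edgeR without replicate 3, called Eno2 there (-0.88, adjusted p = 0.0280, and -1.05, adjusted p = 0.0325), and the block called Eno2 (-0.86, edgeR adjusted p = 0.0367) and Ldhb (0.33, 0.0461). The change of the KO effect from naive to stimulated cells passed for 0 members (0.168% of all genes, 5 members with an unadjusted p under 0.05, 0 by DESeq2).

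The change of the TG effect from naive to stimulated cells passed for 0 members as well (6.18% of all genes, 6 with an unadjusted p under 0.05). The block called 4 as lower, Pdk2 (-1.02, edgeR adjusted p = 0.0110), Slc16a3 (-0.96, 0.0320), Rpe (-0.40, 0.0342) and Pdk3 (-0.37, 0.0262). DESeq2 called Pdk2 (adjusted p = 0.0298), as did edgeR with RLE size factors (0.0496). Leaving out replicate 3, or WT naive replicate 1, each gave Pdk3 (edgeR adjusted p = 0.0391 and 0.0481), and leaving out TG naive replicate 3 gave Rpe (0.0453).

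In introns, 0 members were higher and 2 lower in stimulated KO cells (1.88% and 1.8% of all genes): Pgd (-0.43, SE 0.11, edgeR adjusted p = 0.0210) and Pfkp (-0.25, SE 0.07, edgeR adjusted p = 0.0390). In TG 1 was higher and 0 lower (5.01% and 6.01%), namely Hk2 (0.50, SE 0.15, edgeR adjusted p = 0.0211), with the same value as in its exons. Pdk1 in TG had -0.27 in introns (edgeR adjusted p = 0.0545) and -0.27 in exons. Of exonic minus intronic effects, 1 member passed, Rpia in TG (-0.42, edgeR adjusted p = 0.030), with 0.23 in introns and -0.19 in exons. The share of all genes that passed for this difference is not given here. Aldoc and Pdk2 had no intronic test.

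Matches to the seeds of the cluster were counted in the longest 3′ untranslated region of each gene (GENCODE vM21, GRCm38), as GCACTTT or CACTTTA for miR-17 and miR-20a, GCACCTT or CACCTTA for miR-18a, TTTGCAC or TTGCACA for miR-19a and miR-19b, and GTGCAAT or TGCAATA for miR-92a. At least 1 match was present in 18 of 34 members (52.9%) and in 44.7% of 12607 tested genes, whose median untranslated lengths were 989 and 1125 bases. Of the 7 members lower in stimulated TG cells 6 held a match, of the 3 higher in TG 1, of the 8 lower in KO 2, of the 1 higher in KO 1, and of the 19 called in neither 10. All matches of Ldhb, Aldoc, Pdk1, Rpia and Pfkfb4, which were lower in TG, are printed on the transcript's strand with the match in capitals. Of the 4 of Pfkfb3 (2 for miR-17 and miR-20a, 2 for miR-19), 1 for miR-17 and miR-20a is marked in the same way. The stretch printed for Pfkfb3 also holds a miR-19 match, TTTGCAC, which overlaps the marked one and is not itself marked.
Ldhb, miR-19, chr6:142490278-142490306, minus strand: cttgtttgatgTTTGCACtaggagctcct
Aldoc, miR-17 and miR-20a, chr11:78327683-78327711, plus strand: agggacaggatCACTTTAaccctctggat
Aldoc, miR-19, chr11:78326773-78326801, plus strand: ctgtctgtctgTTGCACAtaccaaagtct
Pdk1, miR-17 and miR-20a, chr2:71901900-71901928, plus strand: gctttcaattaCACTTTActgcaatgatg
Pdk1, miR-18a, chr2:71902095-71902123, plus strand: tttaaggtgtaGCACCTTtttgctctgtt
Rpia, miR-18a, chr6:70765949-70765977, minus strand: tgagcgagaatGCACCTTctcttggatcc
Pfkfb4, miR-92a, chr9:109032172-109032200, plus strand: ccagcattcttTGCAATAaatactttaaa
Pfkfb3, miR-17 and miR-20a, chr2:11473680-11473708, minus strand: gctgtttgtttGCACTTTtccttctttct
Ldhb, the member that was higher in KO and lower in TG, holds 1 match in 188 bases, while Hk2 and Pgd, which moved the other way, hold none. Slc16a1, which also moved the other way, holds 3 matches in 2740 bases. These 3, and the 1 match of Slc2a3, which was lower in KO, are not printed. The share with a match was not counted over all genes higher or lower in either genotype. The part of the matches in the members' levels was not tested. A match describes letters and is not a measured target.

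Of 42 other genes of these pathways, 33 were tested. In stimulated KO cells 3 were higher and 7 lower (13% and 11.4% of all genes). In TG cells 14 were higher and 4 lower (16.1% and 17.7%). Median log2 fold changes of the 33 were -0.11 in KO and 0.14 in TG. The 6 with the smallest adjusted p were Slc2a6, Eno3, H6pd, Slc16a6, Prps1 and Pdhx. Slc2a6, a glucose transporter, was higher in TG (1.52, edgeR adjusted p = 7.49e-11). Eno3, a muscle enolase, was lower in both KO (-0.60, edgeR adjusted p = 2.50e-09) and TG (-0.54, 1.22e-08). H6pd, a glucose-6-phosphate dehydrogenase of the endoplasmic reticulum, was lower in KO (-0.19, edgeR adjusted p = 0.0220) and higher in TG (0.52, 3.46e-09). Slc16a6 (-0.49 in KO, 0.55 in TG), Prps1, which turns ribose 5-phosphate into a nucleotide precursor (-0.27 and 0.44), and Pdhx of the pyruvate dehydrogenase complex (-0.30 and 0.32) likewise passed in both.

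Of 14 regulators of these pathways, all tested, 1 was higher and 6 lower in KO (13% and 11.4% of all genes). In TG 3 were higher and 3 lower (16.1% and 17.7%). Hif1a, the transcription factor that drives many glycolytic genes in low oxygen, was higher in KO (0.46, edgeR adjusted p = 3.09e-07) and lower in TG (-0.40, 1.83e-06). Its relative Epas1 was higher in TG (2.54, edgeR adjusted p = 2.52e-12). Egln3, a prolyl hydroxylase that marks these factors for destruction, was lower in KO (-0.90, edgeR adjusted p = 0.000604), and Vhl, which takes part in the next step, was lower in TG (-0.30, 5.56e-06). Esrra, a nuclear receptor of energy metabolism, and Mtor, the growth kinase, were lower in KO (-0.30 and -0.28) and higher in TG (0.40 and 0.19). Markers of CD4 T cells moved in the same comparisons, 6 of 6 being lower in TG and 3 of 6 higher in KO, and their part in the members' values was not tested.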

How the data were processed

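Libraries were TruSeq stranded RNA, sequenced single-end, per the labels' protocols. The authors deposited a table of raw counts over exons and one over introns per gene; reads were aligned to mm10 with STAR 2.5.2a after FastQC 0.11.5, per the submitters' processing notes, which also name R 3.5 and edgeR 3.24.3. For the counting program, the annotation and the use of strand, the answer is "not given in the sources used here"; reads of overlapping or antisense genes may be shared. Exonic counts were 19.2 to 20.8 M and intronic counts 2.74 to 9.11 M per library, and 53 rows without a symbol were kept.

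The counts of all 58 libraries were fitted with 1 coefficient per group (edgeR 4.0.16, R 4.3.3, TMM factors 0.939 to 1.06, filterByExpr, quasi-likelihood F test, 43 residual degrees of freedom), and p-values were adjusted by Benjamini-Hochberg over 13709 genes with a threshold of 0.05. Comparisons over several states average the states' coefficients. CPM use TMM-scaled library sizes, except the sums of cell type markers, which use the unscaled library totals. The first table was read as exonic only because intronic counts exceed it in 14.1% of values. The difference of exonic and intronic effects was tested in 1 model over both tables, which takes the exonic and intronic counts of a library as independent. The code was tested on simulated counts. Alternatives were RLE size factors, no filter, DESeq2 1.42.0, the replicate number as a block, sums over states, replicate pairs, and each replicate or naive library left out. Figures and sequence searches used Python 3.11.15.

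Libraries of the same number deviated together: the correlation of deviations from genotype means between genotypes was 0.157 to 0.647 in 36 of 36 pairs of same-numbered sums. These pairs overlap, since sums over both times hold the sums of 24 h and of 48 h. Between single libraries, such a correlation exceeded 0.1 in 200 of 264 pairs with the same number and in 49 of 792 with different numbers. The medians were 0.179 and -0.059. Deviations from a mean sum to 0, so a positive correlation within numbers lowers that across numbers. The second count is therefore not a separate contrast. Because of the correlation within numbers, the numbers were taken to pair the libraries in the block and the matched pairs. The main fit left this pairing out and takes all libraries as independent. No 2 libraries of a group agreed within sampling noise.

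All 34 members are named; per-library values are given for the 2 members of each role with the smallest adjusted p against WT in stimulated cells, and of the other pathway genes and regulators at most 6 called ones. Members and lists were chosen with earlier results of these data known.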

Additional observations from a re-analysis of the deposited data

Results flagged for a closer look

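Among 156 groups of 4 libraries checked for the 12 members whose libraries are described in full, 4 held a highest or lowest library whose gap to the nearest of the others, as a share of the group's whole range, was above Dixon's critical value, which chance passes in about 1 in 20 groups. Slc16a1 had 268.7 CPM in replicate 3 of TG cells at 24 h of the weak stimulus, below 305.1 to 311.9 CPM in the others. In WT cells at 48 h of the very weak stimulus, Slc16a1 had 215.1 CPM in replicate 2, below 242.5 to 246.4 CPM. Pdk1 had 155.6 CPM in replicate 2 of KO cells at 24 h of the very weak stimulus, above 132.5 to 135.7 CPM. Rpe had 60.68 CPM in replicate 1 of WT cells at 24 h of the very weak stimulus, above 46.1 to 47.55 CPM.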

How the results depend on the processing

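No called member changed direction under any alternative run. Shares of all genes called in these runs are not given here, so a changed count describes the members alone. RLE size factors, no filter and DESeq2 left each count of members called within 1.5 times, except for the change of the TG effect from naive to stimulated cells (1 by RLE and 1 by DESeq2, against 0) and of the TG effect between times (1 by DESeq2, against 0). The replicate block gave 2 calls for stimulus strength (against 0), 6 for KO at 24 h (against 2), 11 for KO at 48 h (against 7), 10 for TG at 24 h (against 6), 2 for the TG effect between times and 4 for that between naive and stimulated cells (against 0 each), and it changed no call other than those given beside the results. With sums over states, 2 members were called in KO (against 9), 2 in TG (against 10) and 11 in TG against KO (against 17). Against WT, replicates 1 and 2 alone lost Slc2a1, Slc2a3, Aldoa and Slc16a1 in KO and Pfkfb4, Tpi1 and Slc16a1 in TG (edgeR adjusted p = 0.0683 to 0.154). They added G6pdx in KO (0.0422) and Pfkp in TG (0.0112) as lower. Replicates 3 and 4 alone lost Slc2a1, Pfkm, Aldoa and Eno1 in KO and Pfkfb3, Tpi1 and Rpia in TG (edgeR adjusted p = 0.0517 to 0.157). They added Pdk2 as higher in KO (0.00448).

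Leaving out each replicate in turn gave 1 to 3 calls in TG naive cells, 1 to 11 for KO and 1 to 6 for TG at 48 h, 3 to 4 for TG at 24 h, 3 to 10 for KO in stimulated cells, and 0 to 1 for both changes of the TG effect. Depth hardly differed between libraries. Low members (Hk3, Gapdh, Aldoc at 24 h, Pdk2) rest on few counts, and Gapdh, Pgk1, Eno1 and Pgam1 share most or much of their sequence with other transcripts.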
